A study of Mus musculus with 9 samples.

Results

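The genes described here are lysosomal hydrolases, lysosomal membrane proteins and subunits of the lysosomal proton pump, together with the transcription factor gene Tfeb and the progranulin gene Grn. They were taken by name from a list of 37 genes, which was drawn up with earlier results of these data known. Of these 37 genes, 35 were rows of the expression table of 11931 genes. Neu1 and Atp6v0c were not analysed here. Normal mammary fibroblasts had been prepared from the mammary fat pad of female BALB/c mice aged 12 weeks and left to recover on collagen for a week. One group was then grown alone for 5 days. The other groups were grown with 4T1-GFP cells, a BALB/c mammary carcinoma line carrying green fluorescent protein, for 3 days or for 5 days. In all 3 groups the fibroblasts were sorted as GFP- PDPN+ cells, PDPN being podoplanin, a surface protein of fibroblasts, and 3′ end mRNA libraries were sequenced. Each group had 3 libraries, numbered as repetitions, and no label tells separate mice or separate cultures apart, so the p-values below measure the spread between these libraries, which may be technical. There was no monoculture of 3 days, so that at 3 days the culture partner and the time in culture differed from the controls together and cannot be told apart.

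Lysosomes are acidic organelles that break down proteins, glycans and lipids brought in by endocytosis, phagocytosis and autophagy. Most soluble hydrolases are tagged with mannose 6-phosphate in the Golgi and carried to the lysosome, where a proton-pumping ATPase keeps the lumen acidic. The factor TFEB, when it enters the nucleus, binds palindromic elements around the letters CACGTG in the promoters of many of these genes. In fibroblasts some of the hydrolases, cathepsin K among them, are also known for the breakdown of collagen and other matrix proteins.

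The libraries held between 1048471 and 3567326 reads, recovered from the normalised values, and the monocultures were deeper, with a mean of 2966627 reads against 1632228 after 3 and 1806567 after 5 days of co-culture. The 12 fibroblast markers were all in the table, and their summed normalised counts ranged from 46227 to 63829 in monoculture, from 44399 to 55637 at 3 days and from 39564 to 53754 at 5 days. Of these 12 markers, 5 fell and none rose at 3 days (41.7%), while 6 fell and 1 rose at 5 days (58.3%). Of all tested genes 20.0% and 24.0% were called. The summed level of 15 epithelial and carcinoma markers was 56.1 to 83.4 in monoculture. It was 1126 to 1298 at 3 days and 1112 to 1553 at 5 days. Of 14 tested, 13 were called higher at each time (92.9%), beside 10.6% and 12.6% of all tested genes. Some of these markers, Wfdc2 among them (1.2, 7.2 and 0.6 in monoculture), reached the level needed for testing only through the co-cultures. For such markers higher was the only call possible, so no change is read from this count. Krt18, at 13.6, 20.2 and 48.8 in monoculture, reached that level without the co-cultures. In limma its log2 fold change was 2.99 at 3 days (adjusted p = 1.1e-05) and 3.51 at 5 days (adjusted p = 1.3e-06). Cldn3 and Elf3 were at 0 in all 3 monocultures. Macrophages are rich in lysosomes, and 12 of 16 macrophage markers summed to 104 to 328 in monoculture, 133 to 423 at 3 days and 88.4 to 190 at 5 days. Of 9 tested, Csf1r was called at 5 days, as lower, and Adgre1, Itgam, Fcgr1 and Mrc1 were not analysed here. Of 7 adipocyte markers 2 were in the table, and their sum was 113 to 164 in monoculture, 18.3 to 31.3 at 3 days and 18.6 to 29.9 at 5 days. The leukocyte sum (2 of 9 markers) was at most 7.7 and the endothelial level (1 of 8 markers) at most 11.8 in any library. The part that these other cells had in the values below was not tested, and in sorted bulk RNA fewer cells of a type and less RNA per cell cannot be told apart.

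The promoters of 4 members show the element and its absence. RefSeq promoter sequences (GRCm38.p6, 250 bases before to 50 after the start) matched 31 of the 37 genes. CACGTG, which reads the same on both strands, occurred in at least 1 promoter of 9 of these 31 genes (29.0%), beside 8.09% of all 27025 genes with a promoter in the table and 12.3% of the tested genes among them. The longer form TCACGTGA, which contains it and is also its own reverse complement, occurred for 6 of the 31 genes (19.4%), Ctsa, Ctsd, Gla, Mcoln1, Atp6v0d1 and Atp6v1a, beside 1.12% of all genes with a promoter and 2.34% of the tested ones. Shown here, 5′ to 3′ on the gene's strand, are the 250 bases before the start of Lamp1 (chr8:13158911-13159160, plus strand) and Ctsd (chr7:142387828-142388077, minus strand), which hold the element, and of Hexa (chr9:59539290-59539539, plus strand) and Manba (chr3:135485361-135485610, plus strand), which do not. The capitals mark each CACGTG.
Lamp1: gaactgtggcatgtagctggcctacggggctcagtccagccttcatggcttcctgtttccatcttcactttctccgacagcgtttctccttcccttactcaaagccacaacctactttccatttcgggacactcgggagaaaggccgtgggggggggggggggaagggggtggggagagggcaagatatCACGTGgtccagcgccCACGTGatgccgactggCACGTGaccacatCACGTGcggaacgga
Ctsd: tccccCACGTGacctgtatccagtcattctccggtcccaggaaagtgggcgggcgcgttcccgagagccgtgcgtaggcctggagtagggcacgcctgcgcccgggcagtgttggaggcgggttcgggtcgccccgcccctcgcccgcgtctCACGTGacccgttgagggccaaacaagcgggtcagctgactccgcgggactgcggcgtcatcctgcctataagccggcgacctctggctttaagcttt
Hexa: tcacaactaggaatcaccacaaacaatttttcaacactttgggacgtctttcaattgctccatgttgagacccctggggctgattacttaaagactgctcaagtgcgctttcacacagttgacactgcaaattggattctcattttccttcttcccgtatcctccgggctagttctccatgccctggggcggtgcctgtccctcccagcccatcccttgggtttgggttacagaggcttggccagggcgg
Manba: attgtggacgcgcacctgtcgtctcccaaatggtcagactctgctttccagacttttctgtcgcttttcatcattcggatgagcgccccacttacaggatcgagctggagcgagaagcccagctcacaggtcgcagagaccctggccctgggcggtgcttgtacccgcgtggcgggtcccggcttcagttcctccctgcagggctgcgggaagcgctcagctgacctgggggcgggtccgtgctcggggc
There were 4 copies before Lamp1 and 2 before Ctsd, 1 of the latter within TCACGTGA. A match of letters is a description of the window and shows no binding.

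Few of the lysosomal genes passed the test in co-culture, and those that did fell. Hexa, Manba and Lamp1 fell at 3 days, and the same 3 genes and Ctsk fell at 5 days. Values are the authors' normalised counts, fold changes are differences of log2(normalised count + 1), and a gene was called at a Benjamini-Hochberg adjusted p under 0.05 in limma, fitted to all 9 libraries and 10639 genes with at least 5 normalised counts in at least 3 libraries. Of the 35 members 32 passed this filter. Against monoculture, 3 of the 32 were called at 3 days (9.38%), where 20.0% of all tested genes were called, and 4 of 32 at 5 days (12.5%), where the share was 24.0%. All of these calls were decreases. The share of all genes called lower was 9.37% at 3 days and 11.4% at 5 days, close to that of the members, so the number of decreases is not a result about these genes. The share of all genes called higher was 10.6% and 12.6%, while limma and edgeR each called 0 members higher at either time. At an unadjusted p under 0.05, 1 member was higher and 5 were lower at 3 days, and 2 were higher and 5 lower at 5 days, beside 32.9% and 35.5% of all genes. The libraries did not overlap with the monocultures for 2 higher and 5 lower members at 3 days (37.4% of all tested genes, 19.2% higher and 18.1% lower) and for 1 higher and 4 lower at 5 days (40.9%, 20.8% higher and 20.1% lower). Both comparisons with monoculture share the same 3 control libraries.

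The fold changes of the members covered a narrower range than those of all tested genes, a difference that was not tested. The median log2 fold change of the 32 genes was -0.09 at 3 days and -0.08 at 5 days, with quartiles of -0.32 and 0.08 and of -0.31 and 0.06. Over all tested genes the medians were 0.00 and -0.01, with quartiles of -0.41 and 0.41 and of -0.45 and 0.42. The 95% interval of the fold change lay within a 2-fold change in either direction for 27 of the 32 members at 3 days and for 26 at 5 days, beside 44.9% and 42.9% of all genes. A fitted difference of more than 2-fold was seen for 2 members at 3 days (6.25%) and for 1 at 5 days (3.12%), where 16.4% and 18.3% of all genes passed that size. The median standard error was 0.22 for the members and 0.281 for all genes. As a share of all recovered reads, the 35 members made up 1.13%, 1.15% and 0.942% in the monocultures, 0.891%, 0.889% and 0.905% at 3 days and 0.966%, 0.918% and 0.827% at 5 days. The 3-day libraries lay below every monoculture, and the 5-day range overlapped it through 1 library.

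**Figure D1:**
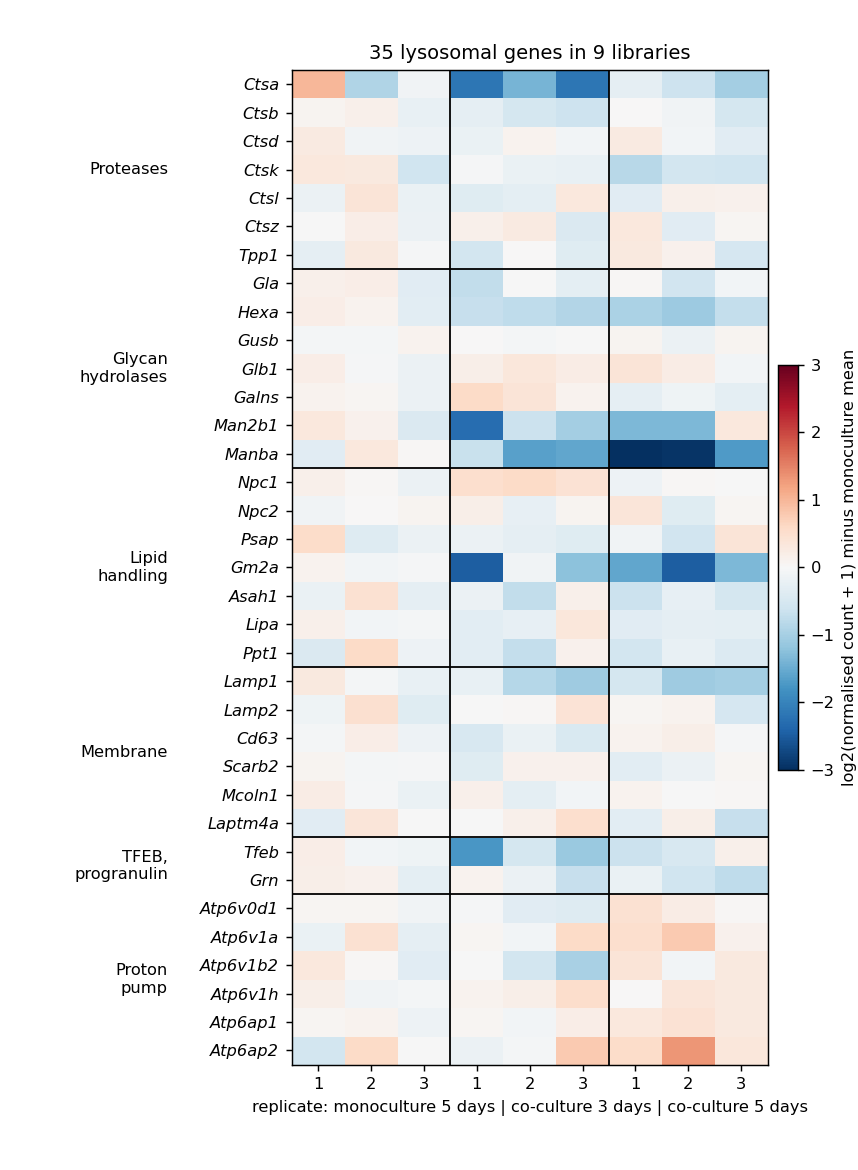
Each cell is log2(normalised count + 1) of 1 of the 35 genes in 1 of 9 libraries minus the mean of the 3 monocultures, with rows grouped by role and red for higher, blue for lower. Most rows are pale, Hexa, Manba and Lamp1 are blue in the co-cultures, and the strong blue cells of Ctsa, Man2b1 and Gm2a rest on group means under 5 normalised counts.

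**Figure D2:**
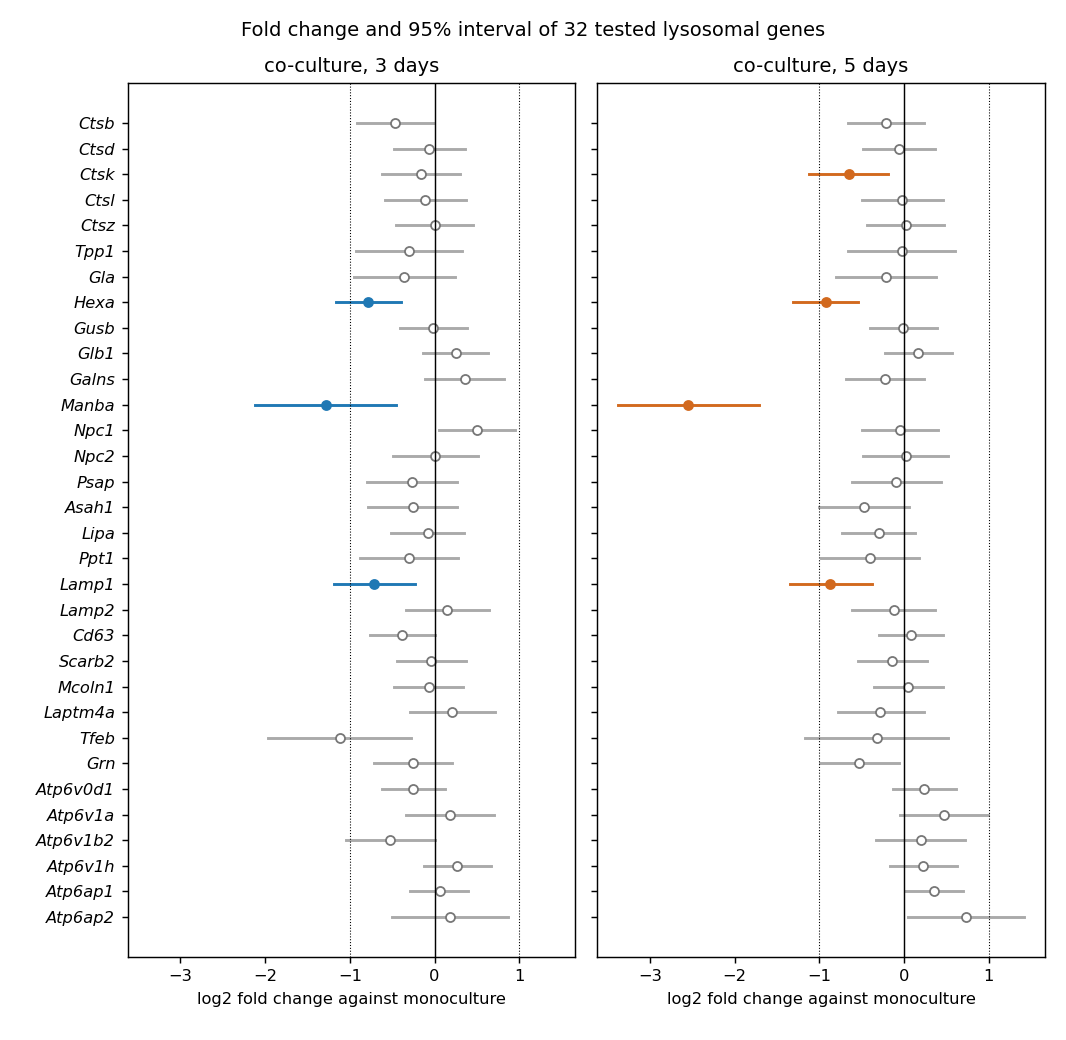
Points are log2 fold changes against monoculture at 3 days (left) and 5 days (right) with 95% intervals for the 32 tested members, filled where the adjusted p was under 0.05, and dotted lines mark a 2-fold change. The filled points are Hexa, Manba and Lamp1 on both sides and Ctsk at 5 days, all to the left of 0.

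**Figure D3:**
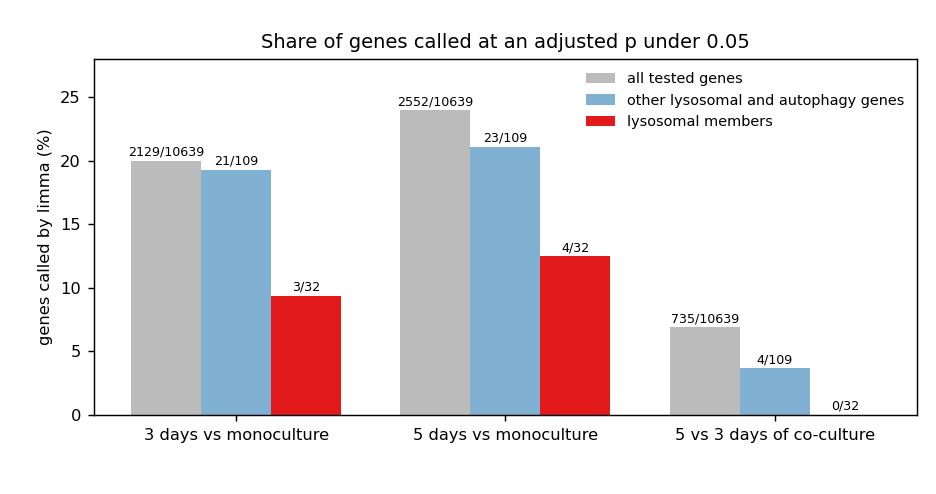
Bars give the percentage of genes called by limma at an adjusted p under 0.05 in each comparison for all tested genes, other lysosomal and autophagy genes and the lysosomal members, with the numbers called and tested above them. The members stand at 9.38%, 12.5% and 0%, beside 20.0%, 24.0% and 6.91% of all genes.

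The glycan-degrading enzymes held 2 of the genes that fell, Hexa and Manba, out of 6 tested (33.3% at each time). Of all tested genes 20.0% were called at 3 days and 24.0% at 5 days, 9.37% and 11.4% as lower. Counts this small do not set the group apart. Hexa (chromosome 9, 59539540 to 59565109, plus strand, mm10) encodes the alpha subunit of beta-hexosaminidase, which removes terminal sugars from the ganglioside GM2. Its normalised counts were 666.6, 625.8 and 462.8 in monoculture, 358.7, 341.8 and 311.6 at 3 days and 300.1, 269.2 and 349.6 at 5 days. All co-cultures lay below all monocultures, whose mean was 585 ± 108 (SD, n = 3). Hexa fell 1.71-fold at 3 days (log2 fold change -0.78, SE 0.18, adjusted p = 0.0063) and 1.89-fold at 5 days (-0.92, adjusted p = 0.0015). This call was kept under every alternative setting, with adjusted p between 0.0042 and 0.035 at 3 days and between 0.00071 and 0.011 at 5 days. An exact two-sided permutation test of 3 against 3 libraries gave p = 0.1 at both times, the smallest p this design can give. The exons of Hexa share 255 bases with those of Tmem202 on the opposite strand, and whether reads were counted by strand is not given in the sources used here. Tmem202 had mean normalised counts of 1.8, 7.43 and 8.77 in the 3 groups.

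Manba (chromosome 3, 135485611 to 135571404, plus strand) encodes beta-mannosidase, which acts on the last steps of N-glycan breakdown. Its normalised counts were 33.4, 53.8 and 43.7 in monoculture, 26.6, 13.2 and 13.9 at 3 days and 4.5, 4.7 and 12.5 at 5 days. The 3 groups did not overlap, each co-culture time lying below the group before it. Manba fell 2.43-fold at 3 days (log2 fold change -1.28, SE 0.39, adjusted p = 0.03) and 5.84-fold at 5 days (-2.55, 95% interval -3.38 to -1.71, adjusted p = 0.00018), on 234, 45 and 20 reads in the 3 groups. The call at 3 days was lost without monoculture replicate 2 (adjusted p = 0.12) or 3 (0.085) and without 3-day replicate 2 (0.11) or 3 (0.088), over a range of 0.01 to 0.12 for all alternatives. The call at 5 days held in all of them, with adjusted p from 9e-05 to 0.0015.

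The other enzymes of this group did not pass the test. Galns encodes a sulfatase that acts on keratan and chondroitin sulfate, and its normalised counts were 52.6, 51.0 and 43.1 in monoculture, 73.1, 64.0 and 52.9 at 3 days and 40.4, 44.7 and 39.9 at 5 days. The 3-day values lay above those of both other groups, with a log2 fold change of 0.36 against monoculture (adjusted p = 0.27). The nearest values, 52.9 at 3 days and 52.6 in monoculture, were less than 1 read apart. In that 3-day library 1 read is worth 1.3913 normalised counts. Gusb, which encodes beta-glucuronidase, had group means of 90.4 ± 6.3, 89.1 ± 2.15 and 90.1 ± 9.43 normalised counts (SD, n = 3). The mean normalised count of Glb1, for beta-galactosidase, was 200 ± 27.5 in monoculture, 237 ± 14.7 at 3 days and 226 ± 36.9 at 5 days. Gla, for alpha-galactosidase A, had 40.2 ± 8.08, 31.4 ± 7.92 and 34.7 ± 7.56. The alpha-mannosidase gene Man2b1 was too low to be tested, with 21, 4 and 6 reads in the 3 groups.

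Of 6 proteases and peptidases tested, only Ctsk was called, at 5 days (16.7%). Of all tested genes 20.0% were called at 3 days and 24.0% at 5 days. Ctsk (chromosome 3, 95499256 to 95509362, plus strand) encodes cathepsin K, a cysteine protease that cleaves collagen. Its normalised counts were 654.8, 640.7 and 347.1 in monoculture, 509.8, 455.3 and 449.4 at 3 days and 297.4, 360.4 and 349.6 at 5 days. The third monoculture lay within the 5-day range, so these groups overlapped, while all 5-day values lay below all 3-day values. Ctsk fell 1.57-fold at 5 days against monoculture (log2 fold change -0.65, 95% interval -1.12 to -0.19, adjusted p = 0.04). The difference at 3 days was -0.16 (adjusted p = 0.66). The call at 5 days depended on most libraries: it was lost without monoculture replicate 1 (adjusted p = 0.17) or 2 (0.16), without 5-day replicate 1 (0.13), 2 (0.068) or 3 (0.075), and with only the compared groups in the fit (0.055). The adjusted p ranged from 0.0024 to 0.17 over all alternatives.

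The other cathepsins did not pass the test. Ctsd, for the aspartic protease cathepsin D, had normalised counts of 3203.5, 2455.8 and 2373.6 in monoculture, 2301.6, 2854.8 and 2521.0 at 3 days and 3192.3, 2490.5 and 2089.9 at 5 days. Those of Ctsl, for cathepsin L, were 1208.7, 1772.7 and 1176.2, then 1051.2, 1118.0 and 1701.5, then 1068.3, 1521.9 and 1486.9. Both genes overlapped between all groups, with log2 fold changes of -0.06 at either time for Ctsd and of -0.11 and -0.02 for Ctsl. Ctsb, for cathepsin B, had 108.3, 114.4 and 88.1 in monoculture, 84.7, 71.7 and 66.8 at 3 days and 104.2, 95.0 and 71.2 at 5 days. Its 3-day values lay below all monocultures by a log2 fold change of -0.47, which did not pass the test (adjusted p = 0.13). Group means of Ctsz, for the carboxypeptidase cathepsin Z, were 460 ± 60.8, 468 ± 112 and 471 ± 107. Tpp1, for tripeptidyl peptidase 1, had 27.4 ± 5.72, 22.1 ± 4.52 and 27.2 ± 7.58. Ctsa, for the protective protein cathepsin A, was not tested, with 21, 1 and 6 reads in the 3 groups.

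Among the 6 tested lipid-handling genes none was called by limma or by edgeR against monoculture. Npc1 at 3 days was the 1 gene with an unadjusted p under 0.05, beside 32.9% of all tested genes at that time. Limma called 20.0% of all tested genes at 3 days and 24.0% at 5 days. NPC1 is the membrane protein that exports cholesterol from the lysosome, working with the soluble NPC2. Normalised counts of Npc1 were 47.7, 44.2 and 37.9 in monoculture, 61.4, 64.7 and 58.4 at 3 days and 38.6, 43.8 and 42.4 at 5 days. Every 3-day value was above every other library, by a log2 fold change of 0.50 against monoculture (adjusted p = 0.11). Npc2 had group means of 55.4 ± 3.86, 56 ± 8.5 and 57.4 ± 14.6. Psap encodes prosaposin, the precursor of the saposins that present sphingolipids to their hydrolases, and had 689 ± 251, 549 ± 37.1 and 641 ± 207. Lipa, for lysosomal acid lipase, had 152.3, 128.8 and 131.1 in monoculture and 107.8, 112.7 and 112.4 at 5 days, which lay below them (log2 fold change -0.30, adjusted p = 0.31). Asah1, for acid ceramidase, had group means of 153 ± 44.9, 128 ± 37.6 and 108 ± 16.1. Ppt1, for palmitoyl-protein thioesterase 1, had 80.2 ± 30.2, 63.8 ± 18.6 and 58.2 ± 6.59. Gm2a, for the GM2 activator that works with hexosaminidase, was below the filter with 24, 7 and 2 reads.

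Of the 6 membrane proteins Lamp1 alone was called (16.7% at each time), beside 20.0% of all tested genes at 3 days and 24.0% at 5 days. LAMP1 and LAMP2 are the abundant glycoproteins that line the lysosomal membrane. Lamp1 (chromosome 8, 13159161 to 13175338, plus strand), whose promoter with 4 CACGTG is printed above, had normalised counts of 2742.4, 2174.1 and 1921.1 in monoculture, 1941.2, 1250.9 and 1075.5 at 3 days and 1551.7, 1083.2 and 1117.3 at 5 days. The first 3-day library lay just above the lowest monoculture, and all 5-day libraries lay below all monocultures. Lamp1 fell 1.64-fold at 3 days (log2 fold change -0.71, SE 0.23, adjusted p = 0.038) and 1.83-fold at 5 days (-0.87, adjusted p = 0.011). At 3 days it missed the threshold without monoculture replicate 1 (adjusted p = 0.14) or 2 (0.071), without 3-day replicate 2 (0.13) or 3 (0.15) and with only the compared groups (0.055), in a range of 0.0067 to 0.15. At 5 days it was lost without 5-day replicate 2 (0.052), in a range of 0.0013 to 0.052. Lamp1 shares 249 exon bases with Grtp1 on the opposite strand, which had means of 5.53, 4.7 and 2.43 normalised counts.

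Lamp2 did not pass the test. Its normalised counts were 294.6, 453.8 and 253.2 in monoculture, 322.2, 333.4 and 427.1 at 3 days and 336.0, 349.3 and 226.0 at 5 days, with log2 fold changes of 0.15 and -0.12 and overlapping groups. The difference between Lamp1 and Lamp2 was not tested. Mcoln1 encodes the calcium channel mucolipin 1, which acts upstream of TFEB, and had 131.8, 111.0 and 99.0 in monoculture, 126.2, 91.9 and 107.1 at 3 days and 122.2, 112.7 and 116.1 at 5 days. The 95% interval of its fold change was -0.48 to 0.34 at 3 days and -0.36 to 0.46 at 5 days, on the log2 scale. Cd63, for a tetraspanin of late endosomes and exosomes, had 3989.5, 4759.2 and 3721.4 in monoculture, 2949.2, 3599.6 and 3017.7 at 3 days and 4456.5, 4680.2 and 4015.0 at 5 days. The 3-day values lay below all others, by -0.38 against monoculture (adjusted p = 0.15). Scarb2, for the receptor that carries glucocerebrosidase to the lysosome, had group means of 197 ± 11.2, 194 ± 35.7 and 180 ± 24.3. Laptm4a had 1791 ± 453, 2053 ± 390 and 1492 ± 450.

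**Figure D4:**
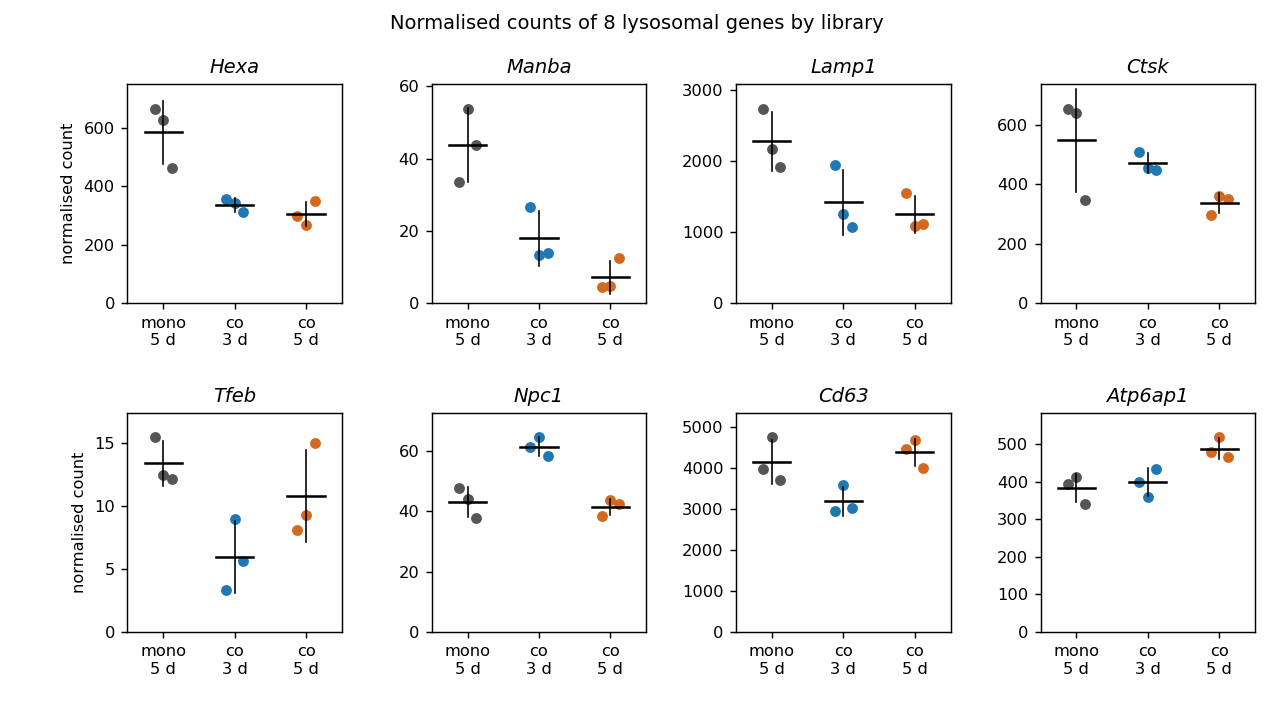
Dots are normalised counts of single libraries in monoculture (5 days) and in co-culture (3 and 5 days), the horizontal line is the mean and the vertical line the SD (n = 3). Hexa and Manba separate the monocultures from both co-cultures, Npc1 is high and Cd63 low at 3 days, and Atp6ap1 is high at 5 days.

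Tfeb, the gene of the factor that binds the CACGTG elements, missed the threshold at 3 days. It had normalised counts of 15.5, 12.5 and 12.2 in monoculture, 3.3, 9.0 and 5.6 at 3 days and 8.1, 9.3 and 15.0 at 5 days. The 3-day libraries lay below the monocultures, and the 5-day libraries overlapped them. On 70, 19 and 31 reads in the 3 groups, the log2 fold change was -1.12 at 3 days (95% interval -1.97 to -0.28, adjusted p = 0.058) and -0.32 at 5 days (adjusted p = 0.62). Without 3-day replicate 2 the 3-day adjusted p was 0.036, and it ranged from 0.036 to 0.17 over the alternatives. TFEB is known to be controlled by its place in the cell, which these data do not measure. Grn encodes progranulin, a secreted growth factor that is also delivered to lysosomes. Its group means were 698 ± 113, 593 ± 159 and 486 ± 101, with a log2 fold change of -0.53 at 5 days (adjusted p = 0.096, range 0.031 to 0.27). The adjusted p of Grn was 0.048 after quantile normalisation.

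The tested members with CACGTG in the promoter can be set beside those without it. The median log2 fold change was -0.09 for the 8 with the element and -0.12 for the 18 without at 3 days, and 0.01 and -0.13 at 5 days. Of the 8 with the element 1 was called at each time, Lamp1. Of the 18 without it, 2 were called at 3 days and 3 at 5 days. The shares of all tested genes called were 20.0% and 24.0%, and counts this small do not set the sets apart. The difference between these sets was not tested.

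None of the 6 proton pump genes was called by limma or by edgeR. Against monoculture 2 had an unadjusted p under 0.05, Atp6ap1 and Atp6ap2 at 5 days. Of all tested genes 35.5% had such a p at 5 days, so this count is not a result about these genes. For the 6 genes, the median log2 fold changes were 0.12 at 3 days and 0.29 at 5 days. The pump consists of a membrane sector, to which Atp6v0d1 belongs, a cytosolic sector that hydrolyses ATP, with Atp6v1a, Atp6v1b2 and Atp6v1h, and the accessory proteins of Atp6ap1 and Atp6ap2. Atp6ap1 had normalised counts of 395.5, 412.4 and 341.9 in monoculture, 400.2, 360.6 and 435.5 at 3 days and 478.9, 519.7 and 465.7 at 5 days. All 5-day values lay above all others, with a log2 fold change of 0.35 against monoculture (adjusted p = 0.13). Atp6ap2 had group means of 71 ± 27.6, 80.5 ± 31.6 and 118 ± 44.9, and its difference at 5 days of 0.73 (adjusted p = 0.11) passed the threshold without monoculture replicate 2 (1.02, adjusted p = 0.041), over a range of 0.041 to 0.41. The mean of Atp6v1a was 145 ± 43.4 in monoculture, 163 ± 42.3 at 3 days and 199 ± 44.3 at 5 days. That of Atp6v1h was 150 ± 15.6, 182 ± 30.4 and 176 ± 21.9. Atp6v1b2 had 166.5, 138.0 and 106.0, then 132.8, 91.2 and 68.2, then 175.2, 127.6 and 164.8, and Atp6v0d1 had 380.0, 380.2 and 340.0, then 358.7, 291.0 and 278.3, then 502.3, 425.6 and 377.0. Atp6v1b2 overlapped between every pair of groups, and Atp6v0d1 was separate only between 3 and 5 days.

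Between 3 and 5 days of co-culture, where the culture partner was the same, none of the 32 members was called by limma or by edgeR. Of all tested genes limma called 6.91%, of which 3.20% were higher and 3.71% lower at 5 days, and edgeR called 6.35%. At an unadjusted p under 0.05 there were 7 members of 32, 3 higher and 4 lower at 5 days, beside 22.3% of all genes. The median log2 fold change of the members was 0.01. Manba was lower at 5 days by -1.26 (adjusted p = 0.065), and this passed the threshold without 5-day replicate 3 (-1.69, adjusted p = 0.023). Galns differed by -0.58 (adjusted p = 0.12), Npc1 by -0.55 (0.13) and Ctsk by -0.49 (0.2), each without overlap of the groups. In the other direction Cd63 differed by 0.46 (adjusted p = 0.14) and Atp6v0d1 by 0.49 (0.1), also without overlap. Atp6v1b2 differed by 0.71 (adjusted p = 0.095), and by 0.96 without 3-day replicate 1 (0.035). The 3-day and 5-day libraries did not overlap for 7 of the 32 members, 3 higher and 4 lower, beside 24.6% of all tested genes, 11.7% higher and 12.9% lower.

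Other genes of the lysosome and of its supply changed in both directions. Of 109 such genes tested, from 7 lists by function, 8 rose and 13 fell at 3 days (19.3%), and 7 rose and 16 fell at 5 days (21.1%), beside 20.0% and 24.0% of all tested genes. The median log2 fold change of these 109 genes was -0.12 and -0.15. Between 3 and 5 days 2 were higher and 2 lower (3.67%), beside 6.91% of all tested genes.

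Among 33 other lysosomal hydrolases, 2 rose and 6 fell at 3 days (24.2%), and 1 rose and 8 fell at 5 days (27.3%). These shares are close to the 20.0% and 24.0% of all tested genes that were called. Ctsc, for cathepsin C, a dipeptidyl peptidase that activates serine proteases of immune cells, rose from normalised counts of 6.8, 11.1 and 16.7 in monoculture to 29.9, 31.3 and 36.2 at 3 days (log2 fold change 1.49, adjusted p = 0.0028) and 49.4, 35.4 and 47.4 at 5 days (1.91, adjusted p = 0.00029). Ctsf, for cathepsin F, fell by 1.01 at 3 days and by 1.28 at 5 days on the log2 scale (adjusted p = 0.0048 and 0.00058). Gaa, the acid alpha-glucosidase that degrades glycogen, fell from 979.7, 820.5 and 753.9 to 384.6, 365.1 and 449.4 normalised counts at 5 days (log2 fold change -1.09, adjusted p = 0.00034). Plbd2, for a phospholipase B-like protein, fell by 1.15 at 5 days (adjusted p = 0.00026). The 3-day decreases of Gaa (-0.67, adjusted p = 0.015) and Plbd2 (-0.66, adjusted p = 0.019) were each lost without some libraries: without monoculture 1 or 3-day replicate 2 or 3 for Gaa (up to 0.071), and without any monoculture or 3-day replicate 2 or 3 for Plbd2 (up to 0.075).

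Of 3 cathepsin inhibitors tested, 1 was called at 3 days (33.3%) and 2 at 5 days (66.7%), beside 20.0% and 24.0% of all tested genes. Counts this small do not set the list apart. The called genes were the cystatins, Cst3 at both times and Cstb at 5 days, in opposite directions. Cst3, for the secreted cystatin C, fell from 2567.8, 1968.9 and 2247.6 normalised counts in monoculture to 1024.6, 1097.1 and 809.7 at 3 days (log2 fold change -1.21, adjusted p = 0.00024) and 714.3, 682.7 and 923.8 at 5 days (-1.55, adjusted p = 1.5e-05). Cstb, for the cytosolic cystatin B, had 662.2, 1002.2 and 843.9 in monoculture and 1125.9, 1033.0 and 1256.3 at 3 days (0.46, adjusted p = 0.097), and rose to 1802.4, 2226.9 and 1712.9 at 5 days (1.20, adjusted p = 0.0002). For both genes the co-cultures of either time did not overlap with the monocultures.

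In the mannose 6-phosphate pathway 2 of 10 genes were called at 3 days (20.0%) and 1 at 5 days (10.0%). The shares of all tested genes were 20.0% and 24.0%. Of these pathway genes Gnptg fell at both times. It encodes the gamma subunit of the phosphotransferase that makes the tag, and had 84.8, 119.2 and 75.2 normalised counts in monoculture, 33.2, 31.3 and 39.0 at 3 days and 37.7, 34.5 and 39.9 at 5 days (log2 fold changes -1.38 and -1.27, adjusted p = 0.00052 and 0.00084). The other called gene, Sorl1, for a sorting receptor, had 2.5, 0.5 and 1.9 normalised counts in monoculture and 13.3, 4.2 and 7.0 at 3 days. It passed the filter on low values only through co-cultures, so no change is read from its call. Of 15 genes for TFEB relatives and their control, 2 fell at 3 days, and 1 rose and 1 fell at 5 days (13.3% at each time). Tfec, a relative of Tfeb that is known from macrophages, had 5.6, 7.2 and 7.7 normalised counts in monoculture, 1.7, 0.0 and 1.4 at 3 days and 0.9, 0.0 and 0.0 at 5 days. It is among the genes counted lower at both times, but it passed the filter only through the monocultures, so a decrease was the only call it could give and none is read from it. Lamtor1, for a lysosomal anchor of mTORC1, fell by 1.02 at 3 days (adjusted p = 0.018), a call lost without monoculture 1 or 2 (0.062 each) or 3-day replicate 3 (0.083). Mtor rose by 0.63 at 5 days (adjusted p = 0.03), and this was lost without any monoculture or without 5-day replicate 1 or 3 (up to 0.12).

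Of 11 other pump subunits tested, 2 rose at 3 days and 2 at 5 days (18.2% at each time). This is below the 20.0% and 24.0% of all tested genes that were called, so the count is not a result about these genes. None of the 11 was called lower, and their median log2 fold change was -0.05 at 3 days and 0.36 at 5 days. Atp6v1g1, of the cytosolic sector, had 124.4, 206.2 and 174.2 normalised counts in monoculture, 240.8, 322.3 and 296.3 at 3 days and 389.9, 310.1 and 307.1 at 5 days (log2 fold changes 0.78 and 1.01, adjusted p = 0.013 and 0.0019). The 3-day call was lost without monoculture 1 (0.073) or 3-day replicate 2 (0.064). Tcirg1, for a membrane-sector subunit, rose by 0.81 at 3 days (adjusted p = 0.022), a call lost without monoculture 2 (0.097) or 3 (0.073) or 3-day replicate 2 (0.083). Atp6v0e2 rose by 1.24 at 5 days (adjusted p = 0.023), a call lost without monoculture 3 (0.09) or 5-day replicate 1 (0.094) or 2 (0.054). Among 18 other membrane proteins 1 rose and 2 fell at 3 days (16.7%), and 1 fell at 5 days (5.56%). Tpcn2, for a lysosomal two-pore cation channel, had 36.5, 32.7 and 41.1 normalised counts in monoculture, 6.6, 8.4 and 5.6 at 3 days and 18.9, 17.7 and 7.5 at 5 days (log2 fold changes -2.27 and -1.36, adjusted p = 0.00029 and 0.011). The 5-day call was lost without monoculture 3 (0.052). Tpcn1, its relative, fell by 0.83 (adjusted p = 0.044) and Litaf, a late endosomal membrane protein, rose by 0.50 (0.04) at 3 days. The Tpcn1 call was lost without any monoculture or 3-day replicate 2 or 3 (up to 0.17), and that of Litaf without monoculture 1 or 2 or any 3-day library (up to 0.14), in edgeR (0.055) and with only the compared groups in the fit (0.054).

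Autophagy delivers cytoplasm to the lysosome. Of 19 of its genes, 2 rose and 1 fell at 3 days (15.8%), and 2 rose and 4 fell at 5 days (31.6%). The shares of all tested genes were 20.0% and 24.0%. Map1lc3b, for the autophagosome protein LC3B, fell from 607.1, 697.5 and 481.4 normalised counts in monoculture to 250.8, 173.3 and 175.3 at 3 days (log2 fold change -1.58, adjusted p = 7.7e-05) and 278.5, 273.8 and 187.3 at 5 days (-1.27, adjusted p = 0.00039). Map1lc3a and Gabarapl1, of the same protein family, fell at 5 days by 1.08 and 0.76 (adjusted p = 0.0033 and 0.0034). Gabarap, also of this family, lay lower in each 5-day library than in any monoculture (-0.39, adjusted p = 0.15). Gabarapl2, of the family too, lay higher in each 5-day library than in any monoculture (0.71, adjusted p = 0.059). Ulk1 was the other autophagy gene called lower at 5 days (log2 fold change -0.8, adjusted p = 0.014). Atg12, for a protein of the LC3 conjugation machinery, rose from 58.2, 53.8 and 66.8 normalised counts to 86.4, 102.3 and 114.1 at 3 days (0.75, adjusted p = 0.025) and to 93.4, 118.3 and 157.3 at 5 days (1.01, adjusted p = 0.0034). Its 3-day call was lost without monoculture 1 (0.063) or 2 (0.09) or 3-day replicate 2 (0.073) or 3 (0.082). Nbr1, for a cargo receptor, rose by 0.76 at 5 days (adjusted p = 0.011), a call lost without 5-day replicate 3 (0.051). Sqstm1, for the cargo receptor p62, had 1341.8, 1136.8 and 1228.2 in monoculture, 2871.2, 2708.6 and 2262.2 at 3 days and 1401.6, 905.3 and 911.4 at 5 days. It rose at 3 days (log2 fold change 1.08, adjusted p = 0.00095) and did not pass the test at 5 days (-0.23, adjusted p = 0.43).

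**Figure D5:**
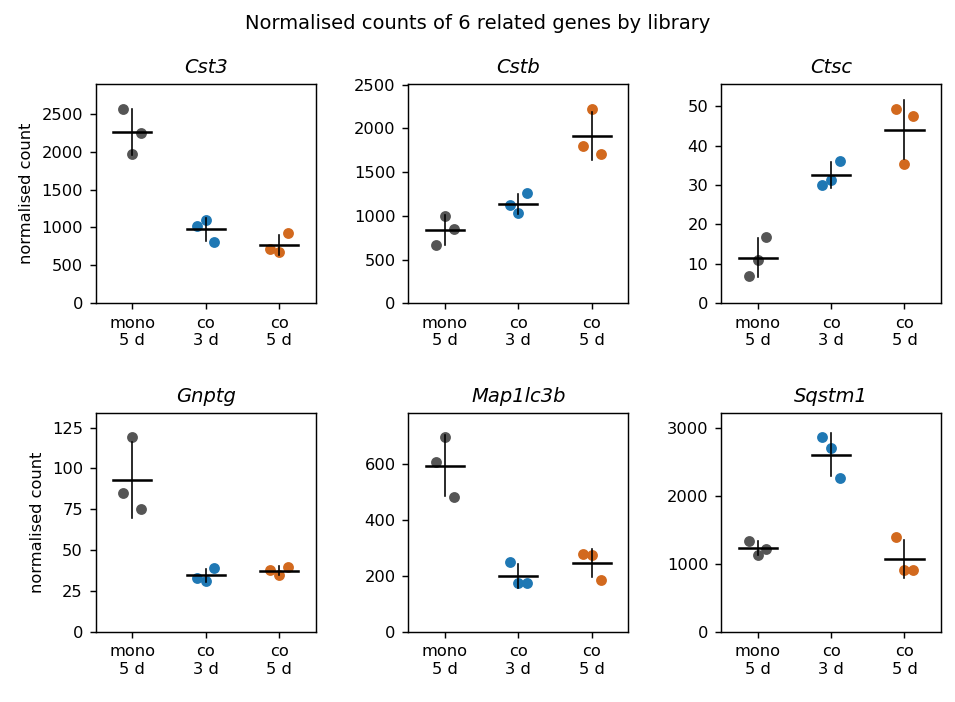
Dots are normalised counts of single libraries of 6 related genes by group, the horizontal line is the mean and the vertical line the SD (n = 3). Cst3, Gnptg and Map1lc3b are lower and Ctsc higher in both co-cultures, Cstb is highest at 5 days, and Sqstm1 is high at 3 days, between 2262.2 and 2871.2.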

How the data were processed

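The authors deposited 1 table of normalised counts (signal per gene, 11931 genes in 9 libraries). Reads were handled with bcl2fastq, STAR 2.4.2a and HTSeq on mm10, per the submitters' processing notes; the normalisation and the strand setting are not given in the sources used here. Divided by what 1 read is worth in each library (0.4807 to 1.6606), 99.93% to 100% of the deposited normalised counts were whole within 0.051, so reads could be recovered; depths ranged from 1048471 to 3567326 reads. One column of 5-day cells numbered 2 names no 4T1 cells. It was taken as co-culture since that repetition's monoculture has its own column. Its summed epithelial markers, 1112.2, were the lowest of the co-cultures, with 1125.7 as the next value. This sum lay above those of the monocultures, which were 56.1 to 83.4.

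Log2(value + 1) was fitted with limma 3.58.1 (R 4.3.3; trended prior variance, 9 libraries, 3 groups, Benjamini-Hochberg adjustment over 10639 genes), after 1292 genes without at least 5 in at least 3 libraries were left out. The quasi-likelihood test of edgeR 4.0.16 on recovered reads called 2239, 2736 and 676 genes at 3 days, at 5 days and between these times, where limma called 2129, 2552 and 735. The labels give no batch. Both tools were tested on simulated data. Alternatives were an offset of 0.5 or 5 inside the log, dropping the filter, keeping only genes whose mean reached 20, TMM and quantile scaling, a replicate block, only the compared groups, edgeR, and leaving out each library.

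The members, the related lists and the cell markers were chosen with earlier results of these data known. Values in every library are given for called members and for Tfeb, Mcoln1, Lamp1, Lamp2, Ctsb, Ctsd, Ctsl and Ctsk; related lists name up to 4 called genes each by smallest adjusted p. Members named for groups that did not overlap, Scpep1, Atg12, Nbr1, Gabarapl2, Gabarap, Ulk1, and the genes printed with promoters were chosen after their values were seen. Gene positions are those of GENCODE M21 (mm10). Intervals of fold changes cover 95%.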

Additional observations from a re-analysis of the deposited data

Results flagged for a closer look

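For 4 related genes the level differed between 3 and 5 days of co-culture, by the direct limma test of 5 against 3 days over all 10639 genes. Without a monoculture of 3 days, a change in the effect of co-culture and the time in culture cannot be told apart. Sqstm1 was lower at 5 than at 3 days, by -1.31 on the log2 scale (adjusted p = 0.00079). While it was called higher than in monoculture at 3 days (1.08, adjusted p = 0.00095), its difference from monoculture at 5 days did not pass the test (-0.23, adjusted p = 0.43). Scpep1, for a retinoid-inducible serine carboxypeptidase, had normalised counts of 574.3, 615.8 and 476.3 in monoculture, 743.9, 923.1 and 912.7 at 3 days and 451.0, 545.8 and 314.6 at 5 days. It was lower at 5 than at 3 days by -1.0 (adjusted p = 0.0073), and its rise at 3 days (0.63, adjusted p = 0.038) was lost without any monoculture or without 3-day replicate 2 or 3 (up to 0.15). Cstb was higher at 5 than at 3 days by 0.74 (adjusted p = 0.026), a call lost without 3-day replicate 1 (0.059) or 2 (0.11) or 5-day replicate 1 (0.058) or 2 (0.11). Atp6v0e2, a pump subunit, was higher at 5 days by 1.32 (adjusted p = 0.044). Its normalised counts were 13.0, 12.0 and 9.0 in monoculture, 6.6, 9.0 and 19.5 at 3 days and 35.0, 26.1 and 23.7 at 5 days. That call was lost in edgeR (0.051), with no filter (0.05) and without 3-day replicate 1 (0.14) or 2 (0.14) or any 5-day library (0.079 to 0.15).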

How the results depend on the processing

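Leaving out 1 library at a time, between 1 and 4 members were called at 3 days, between 2 and 4 at 5 days, and between 0 and 1 from 3 to 5 days. The count was 1, Hexa, without monoculture replicate 2 or 3-day replicate 3, and 2 (Hexa and Manba) without 5-day replicate 2. From 3 to 5 days it was 1 without 3-day replicate 1 (Atp6v1b2, higher) and without 5-day replicate 3 (Manba, lower). The median log2 fold change of the members then ranged from -0.19 to -0.05 at 3 days, from -0.16 to -0.06 at 5 days and from -0.04 to 0.03 between them. The other alternatives stayed within 1.5 times of these counts. With no filter Ctsa was added at 3 days and Gm2a at 5 days. No called gene changed direction under any alternative run. The 3-day calls of Manba and Lamp1 and the 5-day calls of Lamp1 and Ctsk were each lost under at least 1 alternative. Tfeb and Atp6v1b2 at 3 days, Grn and Atp6ap2 at 5 days, and Manba and Atp6v1b2 between these times were each called under at least 1. Whether the replicate numbers pair the libraries cannot be decided from 3 libraries per group. Deviations of same-numbered libraries from their group means correlated between -0.11 and 0.23 (9 pairs), those of other libraries between -0.30 and 0.32. In 8 of 18 cases a library correlated best with its own number. With the replicate block 3 members were called at 3 days, 5 at 5 days (Grn added, log2 fold change -0.53, adjusted p = 0.031) and 0 between them, and the call of Atp6v0e2 between 3 and 5 days was lost (adjusted p = 0.05). Depth limits the low genes: Tfeb rests on 19 reads at 3 days and Manba on 20 at 5 days, and the monocultures were the deepest group on average.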

Other observations

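Several members shared the library in which they were highest in each group. Ctsl, Asah1, Ppt1, Lamp2, Laptm4a, Atp6v1a, Atp6ap1 and Atp6ap2 were each highest in monoculture replicate 2, in 3-day replicate 3 and in 5-day replicate 2. These are 8 of the 32 tested members (25%), and 9.62% of all 10639 tested genes had the same 3 highest libraries. The collagen gene Col1a1 was among them, with 24211.3, 26146.3 and 24642.5 normalised counts in those libraries. The pattern was noticed after the values were seen and was not tested. The summed macrophage markers were highest in replicate 2 of each group, at 327.9, 423.3 and 190.1 normalised counts. Pltp, whose exons overlap those of Ctsa by 495 bases on the opposite strand, had mean normalised counts of 107, 25 and 17.4 in monoculture and at 3 and 5 days, while Ctsa was at 4.2, 0.233 and 1.93.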
